A study of Mus musculus with 18 samples.

Results

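The Notch pathway genes are a set of 34 named genes that covers the receptors, their ligands, the enzymes that modify receptors, the nuclear complex, its direct targets and the regulators of receptor turnover. A gene counted as measured when a probe that carries its symbol alone had a detection p under 0.05 on at least 9 of the 18 arrays, and its brightest such probe was used. By that rule 26 of the 34 genes were measured, among 11465 genes on the array. The other 8 were not: Notch2, Dll3, Dll4, Rbpj, Hes7 and Heyl had probes that passed on 1 array or none, and Dlk2 and Dtx3 had no probe under their symbol alone.

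The study asked what expression of the glioma-associated Idh1 mutant R132H does to the adult subventricular zone (SVZ), the stem cell niche in the wall of the lateral ventricle, and profiled RNA of dissected SVZ on Illumina bead arrays. The 9 Tam-Idh1-KI mice carried Nes-CreER(T2) and 1 conditional Idh1 fl(R132H) allele, so that tamoxifen recombined the allele in nestin-expressing cells. The 9 control mice were Idh1 wild-type, with or without the Cre, and had the same tamoxifen, 50 mg/kg daily for 5 days at 5 to 6 weeks of age. All were c57bl6 mice, the controls are described as paired littermates, and the allele is described as leaky without tamoxifen. The sample titles give replicate numbers but name no pairs, and the main fit had no pair term. Arrays were hybridised on 2 dates, called day 1 and day 2 here. Day 1 held 6 mice of each genotype aged 5 to 6 months, and day 2 held 3 of each aged 7 to 9 months. Age and date thus cannot be told apart. The genotypes were not matched in age either, with a median of 6 months in controls and 5 in Tam-Idh1-KI mice. The main fit had no age term. The control group had 3 females and 6 males and the Tam-Idh1-KI group 5 females and 4 males, and all 3 Tam-Idh1-KI mice of day 2 were female. The nestin promoter marks stem and progenitor cells, while the RNA came from all cells of the dissected tissue, so fewer cells of a type and less RNA per cell cannot be told apart.

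Notch signalling passes between touching cells. A ligand of the Delta or Jagged family on one cell binds a Notch receptor on its neighbour, the receptor is cut, and its intracellular domain enters the nucleus, where it joins the DNA-binding protein RBPJ and a Mastermind co-activator to switch on Hes and Hey genes. In the adult SVZ the pathway is known for keeping neural stem cells quiescent and undifferentiated, because Hes and Hey proteins are repressors of genes that commit cells to neuronal fate.

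The tissue label was checked against marker lists. Of the markers of neural stem cells and astrocytes 20 of 21 were measured, of ependymal cells 22 of 25 and of neuroblasts 17 of 20. Those of striatal projection neurons had 16 of 20 listed symbols measured, where Drd1a, not measured, is an older symbol of the measured Drd1. The mean log2 level of these striatal markers ran from 11.87 to 12.32 in controls and from 11.83 to 12.36 in Tam-Idh1-KI mice. Of cortical neuron markers 13 of 15 were measured. Their mean log2 level ran from 9.28 to 10.15 in controls and from 8.58 to 10.68 in Tam-Idh1-KI mice. How much neighbouring striatum or cortex each dissection held was not tested. From 44.63% to 50.88% of probes were detected on each array, and mean bead signals ran from 454.2 to 904.9. Pairs of arrays correlated at 0.955 to 0.995 on the log2 scale. The Idh1 probe, which the files do not tie to either allele, read 8.82 to 9.73 in Tam-Idh1-KI mice and 9.26 to 10.03 in controls.

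The DNA motif that RBPJ binds, GTGGGAA on either strand, was looked up in the 250 bases before the start of each gene, as given by RefSeq on build GRCm38.p6. A promoter was listed for 27 of the 34 genes, and the genes without an entry were Hes1, Hey1, Heyl, Dtx3, Dtx4, Mib1 and Itch. The motif stood in 4 of the 34 promoters listed for the 27 genes, those of Lfng, Hes5, Hes7 and Hey2, and in 5.42% of all 32851 listed promoters. The shorter core TGGGAA, which the motif contains, stood in 9 of the 34 promoters and in 21.6% of all promoters. The promoters of the 3 measured genes with the full motif are shown because these genes are read below as targets and modifiers of the pathway, and capitals mark the motif or its reverse complement.
Lfng, chr5:140607091-140607340, plus strand: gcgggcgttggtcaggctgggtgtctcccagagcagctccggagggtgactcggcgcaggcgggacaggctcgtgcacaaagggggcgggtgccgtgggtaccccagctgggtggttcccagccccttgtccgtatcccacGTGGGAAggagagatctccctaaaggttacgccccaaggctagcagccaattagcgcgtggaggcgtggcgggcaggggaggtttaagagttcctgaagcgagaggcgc
Hes5, chr4:154960673-154960922, plus strand: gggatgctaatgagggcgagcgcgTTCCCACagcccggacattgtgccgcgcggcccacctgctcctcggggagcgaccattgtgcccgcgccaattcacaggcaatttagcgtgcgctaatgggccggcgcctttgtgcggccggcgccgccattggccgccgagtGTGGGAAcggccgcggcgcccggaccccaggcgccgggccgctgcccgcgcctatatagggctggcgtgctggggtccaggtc
Hey2, chr10:30842784-30843033, minus strand: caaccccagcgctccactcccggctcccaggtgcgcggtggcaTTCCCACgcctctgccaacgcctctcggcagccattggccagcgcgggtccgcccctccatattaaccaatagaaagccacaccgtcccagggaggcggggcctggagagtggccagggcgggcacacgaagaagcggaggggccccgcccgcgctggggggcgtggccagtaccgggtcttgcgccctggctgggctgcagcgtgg
Hes5 held the motif once on each strand, at bases 226 to 220 and 83 to 77 before the start, which 18 promoters, 0.0548% of all, did. Lfng held it at bases 109 to 103 and Hey2, on the opposite strand, at bases 207 to 201. These are matches of letters and say nothing of binding in this tissue.

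The first comparison was between the 9 Tam-Idh1-KI and the 9 control mice, in 1 limma fit with day and sex as covariates and p-values adjusted over all 11465 genes. No Notch pathway gene passed the test for a genotype difference. At an adjusted p under 0.05 the count was 0 of 26, where 0.174% of all genes passed, and the smallest adjusted p in limma was 0.32. At an unadjusted p under 0.05 only Maml2 passed, 1 of 26 or 3.85%, against 9.57% of all genes. The groups overlapped for each of the 26 genes, as they did for all but 0.0349% of genes. Differences ran from -0.43 for Numbl to 0.30 for Maml1 on the log2 scale, with a median of -0.03 for the 26 genes and 0.01 for all genes. The median size without sign was 0.06 for the pathway genes and 0.08 for all genes.

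How large a difference in the whole tissue the brightest probes could have hidden is given by the 95% intervals. They do not cover other probes of a gene or changes confined to some cells of the tissue. For dim probes, the offset added before the log also pulls differences towards 0. The second kept Numbl probe, for example, differed by -0.59 ± 0.20. For all 26 genes the interval lay inside a 2-fold change in either direction, as it did for 98.8% of all genes. For 22 of the 26 it lay inside a 1.5-fold change, against 88.6% of all genes, and the 4 exceptions were Lfng, Rfng, Maml1 and Numbl. A positive difference was seen for 10 of the 26 genes and for 54.5% of all genes. With arrays scaled on their medians in place of quantile normalisation, 20 of the 26 and 81.5% of all genes were positive, as that scaling moved the median of all genes from 0.01 to 0.12, so the directions below are relative to quantile-normalised values.

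**Figure D1:**
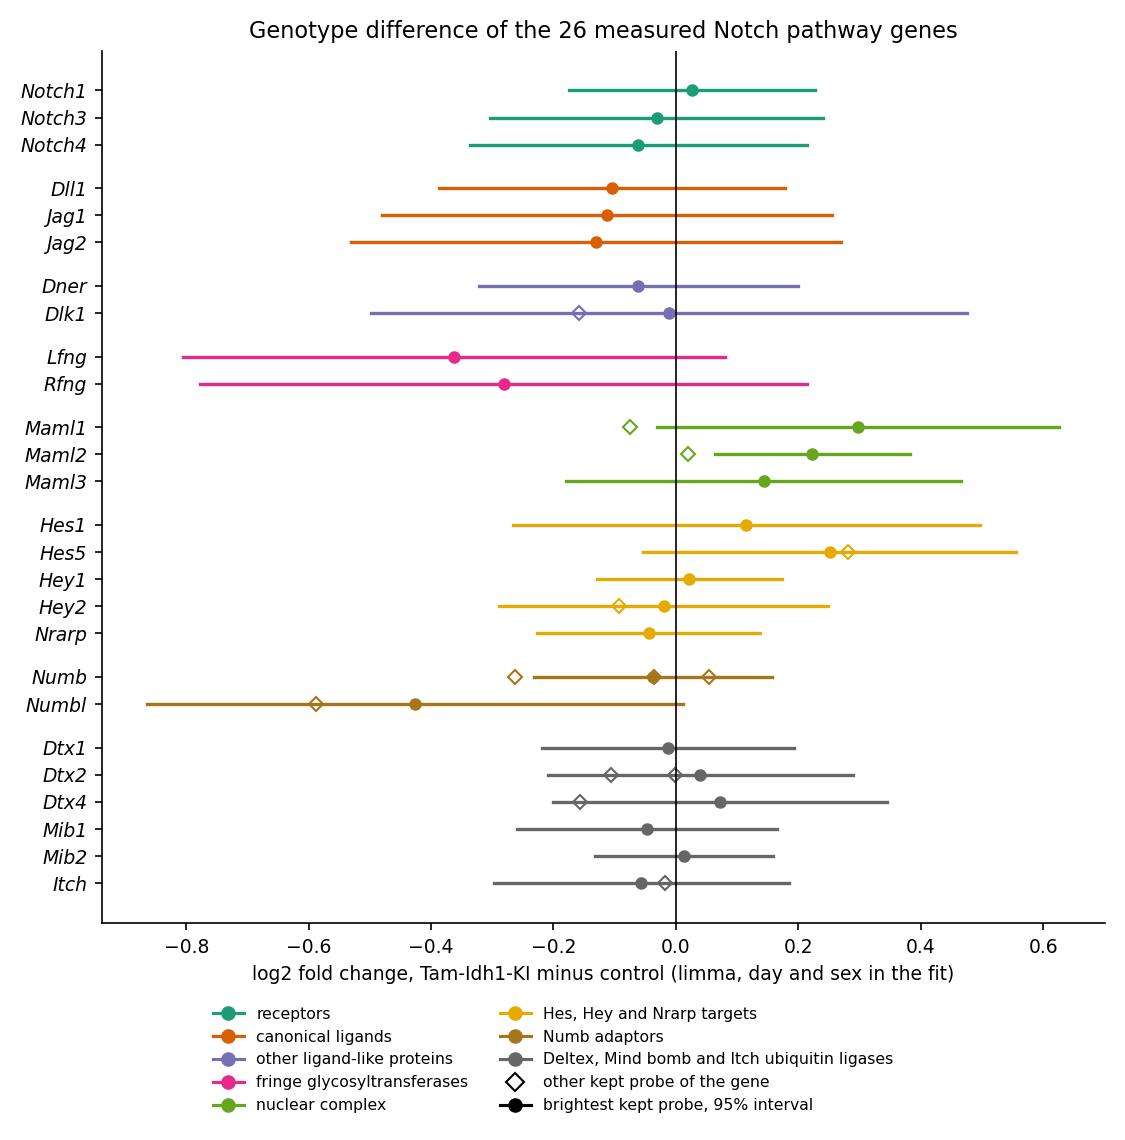
Log2 fold change between 9 Tam-Idh1-KI and 9 control mice on the horizontal axis for each of the 26 measured Notch pathway genes, grouped by role, with filled points for the brightest kept probe, lines for its 95% interval and open diamonds for other kept probes of the gene. The interval of Maml2, from 0.06 to 0.38, is the only one that leaves out 0, and its second probe sits at 0.02.

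Among the receptors Notch1, Notch3 and Notch4 were measured and Notch2 was not. Notch1, the receptor best known from neural stem cells, differed by 0.03 ± 0.10 (SE) between genotypes, and Notch3, a receptor of vascular mural cells that quiescent stem cells also use, by -0.03 ± 0.13. Notch4, known from endothelium, led this group by p. Its log2 values ran from 8.44 to 9.51 in controls, with a median of 8.91, and from 8.12 to 10.004 in Tam-Idh1-KI mice, with a median of 8.70. The Tam-Idh1-KI range enclosed the control range, and the difference was -0.06 ± 0.13 (limma, adjusted p = 0.94). On day 1 the group means differed by -0.22 and on day 2 by 0.20. Genotype differences given per day, here and below, are between group means without the sex term.

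The cell-surface ligands that bind Notch were Dll1, Jag1 and Jag2, with Dll3 and Dll4 not measured. Dll1, a Delta ligand found on activated progenitors of the SVZ, ran from 6.03 to 6.94 in controls, with a median of 6.25, and from 5.95 to 6.54 in Tam-Idh1-KI mice, with a median of 6.41. The medians stood in the opposite order to the fitted difference of -0.10 ± 0.13 (limma, adjusted p = 0.89), and the groups overlapped over most of their range. Jag1 and Jag2, the Jagged ligands, differed by -0.11 ± 0.17 and -0.13 ± 0.19. The Jag1 probe was dim and was detected on 13 of the 18 arrays.

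The ligand-like proteins Dner and Dlk1 lack parts of the canonical ligands. Dner, a neuronal surface protein, ran from 11.81 to 12.89 in controls, with a median of 12.46, and from 11.86 to 12.81 in Tam-Idh1-KI mice, with a median of 12.38. The ranges nearly coincided, and the difference was -0.06 ± 0.12 (limma, adjusted p = 0.94). Dlk1, a secreted and membrane-bound niche factor, differed by -0.01 ± 0.23 and had the widest within-day spread of the Tam-Idh1-KI group, with an SD of 0.64.

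Fringe enzymes add sugars to Notch receptors and so bias them towards Delta or Jagged ligands. Lfng, or lunatic fringe, ran from 4.75 to 6.41 in controls, with a median of 5.57, and from 4.95 to 5.69 in Tam-Idh1-KI mice, with a median of 5.21. The Tam-Idh1-KI values all lay inside the control range, and 2 of the 9 were above the mean of the controls of their day. The difference was -0.36 ± 0.21 (limma, adjusted p = 0.64). The probe was dim, detected in 6 of the 9 controls and 4 of the 9 Tam-Idh1-KI mice, and the offset of 16 added before the log pulls differences of dim probes towards 0. Rfng, or radical fringe, differed by -0.28 ± 0.24.

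The nuclear complex was represented by the 3 Mastermind-like co-activators, since Rbpj itself was not measured. Maml2 ran from 9.28 to 10.46 in controls, with a median of 9.53, and from 9.44 to 10.60 in Tam-Idh1-KI mice, with a median of 9.78. Within a day the groups stood further apart than these ranges show, and 8 of the 9 Tam-Idh1-KI mice lay above the mean of the controls of their day. The difference was 0.22 ± 0.08, a 1.17-fold higher value, with an unadjusted p of 0.00886 and an adjusted p of 0.32 in limma. The group means, without the sex term, differed by 0.24 on day 1 and 0.28 on day 2. A second, dimmer Maml2 probe, detected on 14 arrays, differed by 0.02 ± 0.19, so the 2 probes did not give the same size.

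Maml1 differed by 0.30 ± 0.16 (adjusted p = 0.586 in limma), and its second probe gave -0.07 ± 0.12. On the probe used, group means differed by 0.49 on day 1 and -0.14 on day 2. Maml3 differed by 0.14 ± 0.15. All 3 Mastermind-like genes thus had positive fitted values on the probe used, with none past the threshold.

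Of the direct targets Hes1, Hes5, Hey1, Hey2 and Nrarp were measured. Hes5, the repressor whose promoter carries the motif on both strands, is a standard readout of Notch activity in neural stem cells. Its values ran from 7.81 to 9.49 in controls, with a median of 8.68, and from 8.18 to 9.47 in Tam-Idh1-KI mice, with a median of 8.94. The highest mice of both groups were alike, and the lowest control of each day lay below every Tam-Idh1-KI mouse of that day. The difference was 0.25 ± 0.14 (limma, adjusted p = 0.64), and group means differed by 0.15 on day 1 and 0.48 on day 2. A second Hes5 probe differed by 0.28 ± 0.12 in a fit over all kept probes, with an unadjusted limma p of 0.0278.

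The other targets lay closer to 0. Hes1, a repressor that Notch shares with other signals, differed by 0.12 ± 0.18, and Hey1, which is active in quiescent stem cells, by 0.02 ± 0.07. Hey2, a relative of Hey1 known from vessels, differed by -0.02 ± 0.13, and Nrarp, a feedback inhibitor that binds the Notch intracellular domain, by -0.04 ± 0.09. Narrow errors for Hey1 and Nrarp left 95% intervals of -0.13 to 0.17 and -0.23 to 0.14.

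Numb and its relative Numbl are adaptor proteins that direct Notch receptors to endocytosis and so restrain the pathway. Numbl ran from 6.71 to 8.44 in controls, with a median of 7.76, and from 6.68 to 7.85 in Tam-Idh1-KI mice, with a median of 7.10. Controls spread widely and 1 of the 9 Tam-Idh1-KI mice lay above the mean of the controls of its day. The difference was -0.43 ± 0.21 (limma, unadjusted p = 0.0558 and adjusted p = 0.55). Group means differed by -0.50 on day 1 and -0.36 on day 2. A second Numbl probe, detected in 7 controls and 2 Tam-Idh1-KI mice, differed by -0.59 ± 0.20. It met the rule of 9 arrays mostly through the group where it was higher, so it was not read as support for the first probe. Numb differed by -0.04 ± 0.09 on its brightest probe, and its 3 other kept probes gave -0.26, -0.04 and 0.05. Replicate 6 of the Tam-Idh1-KI mice was the highest of its group for both adaptors.

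The last role group holds ubiquitin ligases. Mib1 and Mib2 act on ligands in the sending cell, while Itch and the Deltex proteins act on the receptor or its traffic in the receiving cell. Dtx4 led by p, with values of 6.66 to 7.79 and a median of 7.36 in controls and 7.18 to 7.71 with a median of 7.46 in Tam-Idh1-KI mice. Its Tam-Idh1-KI range lay within the control range, and the difference was 0.07 ± 0.13 (limma, adjusted p = 0.93). A second, dimmer Dtx4 probe, detected on all 18 arrays, differed by -0.16 ± 0.19. Dtx1, Dtx2, Mib1, Mib2 and Itch ranged from -0.06 for Itch to 0.04 for Dtx2.

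**Figure D2:**
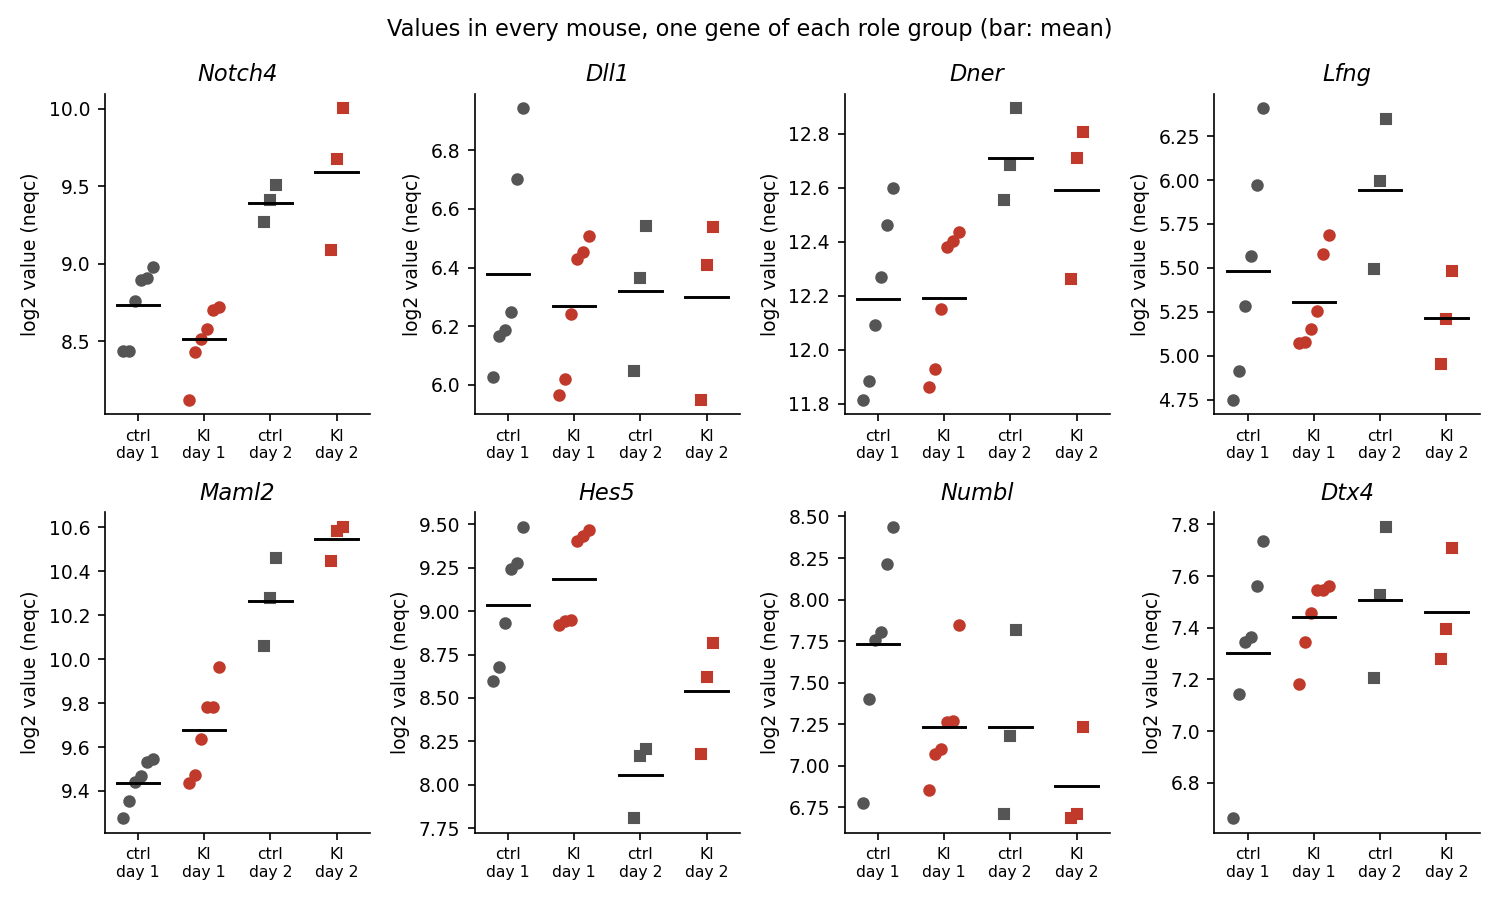
Log2 value on the vertical axis in every mouse for Notch4, Dll1, Dner, Lfng, Maml2, Hes5, Numbl and Dtx4, the gene of lowest p in each role group, with grey for control and red for Tam-Idh1-KI, circles for day 1 (6 per group), squares for day 2 (3 per group) and bars for means. Genotypes overlap in every panel when both days are pooled, while Notch4 and Maml2 are higher and Hes5 mostly lower on day 2.

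The next comparison was between the days. Between day 1 (12 mice) and day 2 (6 mice), with genotype and sex in the fit, 16 of 26 genes changed, or 61.5%, a share near the 63.8% of all genes that did. Of these, 8 were higher on day 2, against 36.8% of all genes, and 8 were lower, against 27.1%. The 12 mice of one day and the 6 of the other did not overlap for 7 genes, Notch1, Notch4, Rfng, Maml2, Hes1, Dtx1 and Dtx2, which is 26.9% of the pathway and compares with 27.7% of all genes. The median size of the day difference was 0.46 for the pathway genes and 0.41 for all genes.

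Receptors did not move together across the days. Notch1 ran from 8.56 to 9.33 on day 1, with a median of 8.88, and from 9.82 to 10.30 on day 2, with a median of 10.21. The day difference was 1.22 ± 0.10, or 2.33-fold (limma, adjusted p = 4.93e-08), and day means rose from 8.87 to 10.04 in controls and from 8.87 to 10.27 in Tam-Idh1-KI mice. Notch4 was likewise higher on day 2, by 0.90 ± 0.14, while Notch3 was lower, with a log2 difference of -0.40 ± 0.14.

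The 2 measured Hes genes ran the other way from Notch1. Hes1 ran from 7.44 to 8.55 on day 1, with a median of 7.88, and from 6.24 to 7.32 on day 2, with a median of 7.13. No mouse of day 2 reached the lowest mouse of day 1, and the log2 difference was -0.97 ± 0.20 (limma, adjusted p = 0.000377). Hes5 had a log2 difference of -0.83 ± 0.16 (adjusted p = 0.000193 in limma) and its second probe -0.46. Hey1 had one of -0.19 ± 0.08, and Hey2 and Nrarp did not pass.

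Ligands and modifiers split as well. Jag1 was 1.44-fold higher on day 2 and Dner 1.34-fold higher, whereas Jag2 had a log2 difference of -0.91 ± 0.21 and Rfng one of -1.25 ± 0.26. The Mastermind-like genes did not share a direction, with Maml2 higher by 0.80 ± 0.08, Maml1 higher by 0.49 ± 0.17 and Maml3 at -0.69 ± 0.17. Of the ligases Dtx2 was higher by 0.88 ± 0.13 and Mib1 by 0.59 ± 0.11, and Dtx1 stood at -0.78 ± 0.11. Other kept probes did not always repeat the direction. For Dtx2 they gave 0.02 and -0.33, and for Dlk1, which did not pass, the 2 probes gave 0.42 and -0.33.

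**Figure D3:**
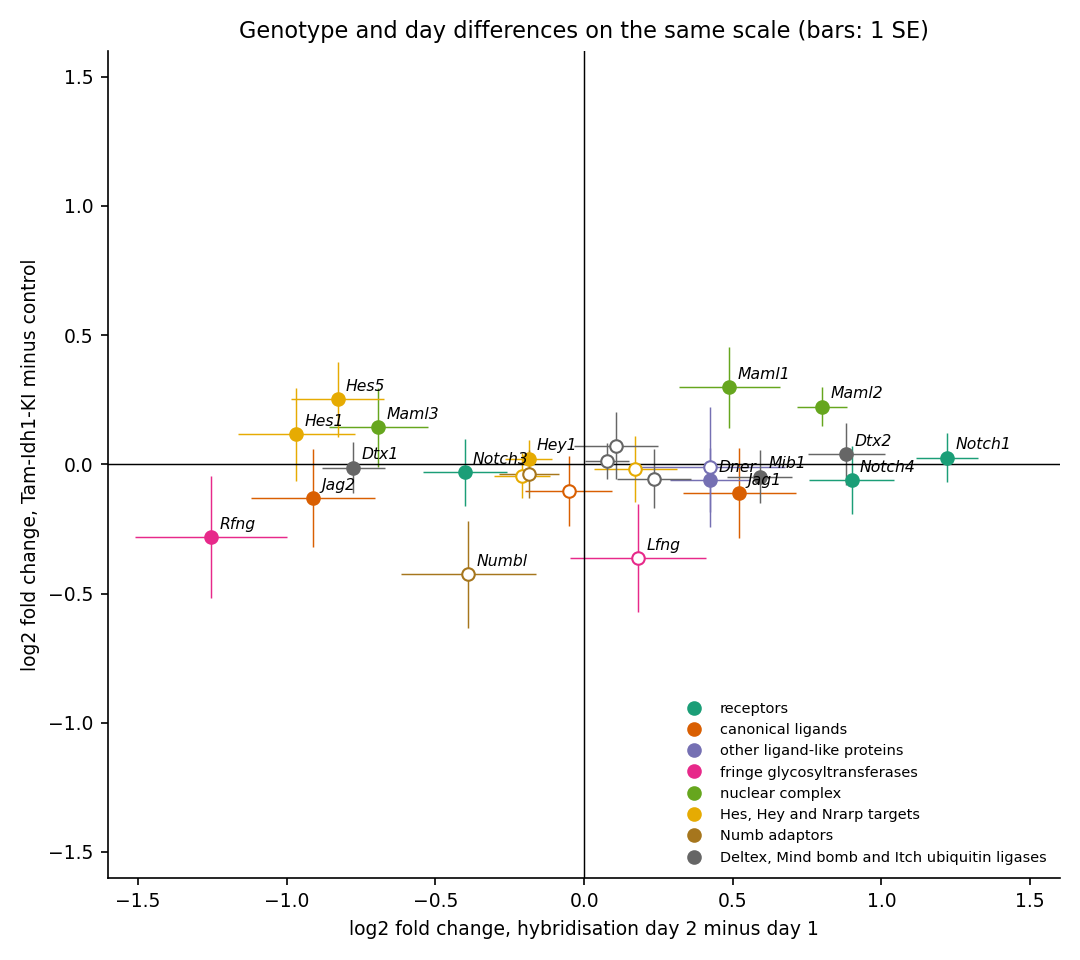
Log2 fold change between genotypes (vertical axis) against that between hybridisation days (horizontal axis) for the 26 genes on equal scales, with bars of 1 SE, colours for roles and filled points for an adjusted day p under 0.05. Points spread from -1.25 to 1.22 along the day axis and from -0.43 to 0.30 along the genotype axis.

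Whether the genotype difference itself varied was tested with interaction terms. By day, 0 of 26 genes passed an adjusted p under 0.05 in limma, as did 0% of all genes, and 2 of 26 passed at an unadjusted p, Mib1 and Mib2, against 2.9% of all genes. Group means of Mib1 differed by 0.08 on day 1 and -0.40 on day 2. The interaction, fitted with sex as a covariate, was -0.44 ± 0.20 (unadjusted p = 0.0414, adjusted p = 1 in limma). Group means of Mib2 differed by 0.11 and -0.17, and its fitted interaction was -0.35 ± 0.13 (unadjusted p = 0.0183, adjusted p = 1 in limma). Both ligases thus had day estimates of opposite sign, and neither interaction passed after adjustment.

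Sex gave less. Between females and males 0 of 26 genes passed after adjustment in limma, against 0.0262% of all genes, and 0 of 26 also at an unadjusted p under 0.05, against 3.43% of all genes. Notch1 came nearest, higher in females by 0.20 ± 0.10 (unadjusted p = 0.0628, adjusted p = 0.999 in limma). In the interaction of genotype with sex 0 of 26 passed after adjustment in limma, against 0.00872% of all genes, and Mib1 and Itch, 2 of 26, passed at an unadjusted p, against 3.38% of all genes. The terms, female minus male, were -0.44 ± 0.19 for Mib1 and -0.50 ± 0.22 for Itch. All 3 Tam-Idh1-KI mice of day 2 were female, and each interaction was fitted without the other. The day and sex interactions, as for Mib1, thus cannot be fully told apart.

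Receptor and target levels were then compared between mice, after the mean of each group and day was taken off. Of 5 relations of Notch1 with a measured target, Hes1 had the strongest, and it was negative. Pearson's r was -0.635 (permutation p = 0.0116, adjusted over the 5 p = 0.058) and Spearman's rho -0.593 (permutation p = 0.0233, adjusted p = 0.116) over 18 mice. Without the 2 mice farthest from the median of Notch1, r was -0.519. Within day 1 r was -0.703 over 12 mice and -0.541 without the 2 farthest. Within day 2 it was -0.533 over 6 mice (exact permutation p = 0.528) and 0.108 without the 2 farthest. The relation did not pass after adjustment. Hes5 gave r = 0.344, Hey1 0.299, Nrarp 0.161 and Hey2 -0.135, with adjusted permutation p-values of 0.463 or more. Without the 2 farthest mice these became 0.425 for Hes5, 0.0555 for Hey1, 0.187 for Nrarp and 0.248 for Hey2, so the value of Hey2 turned its sign.

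**Figure D4:**
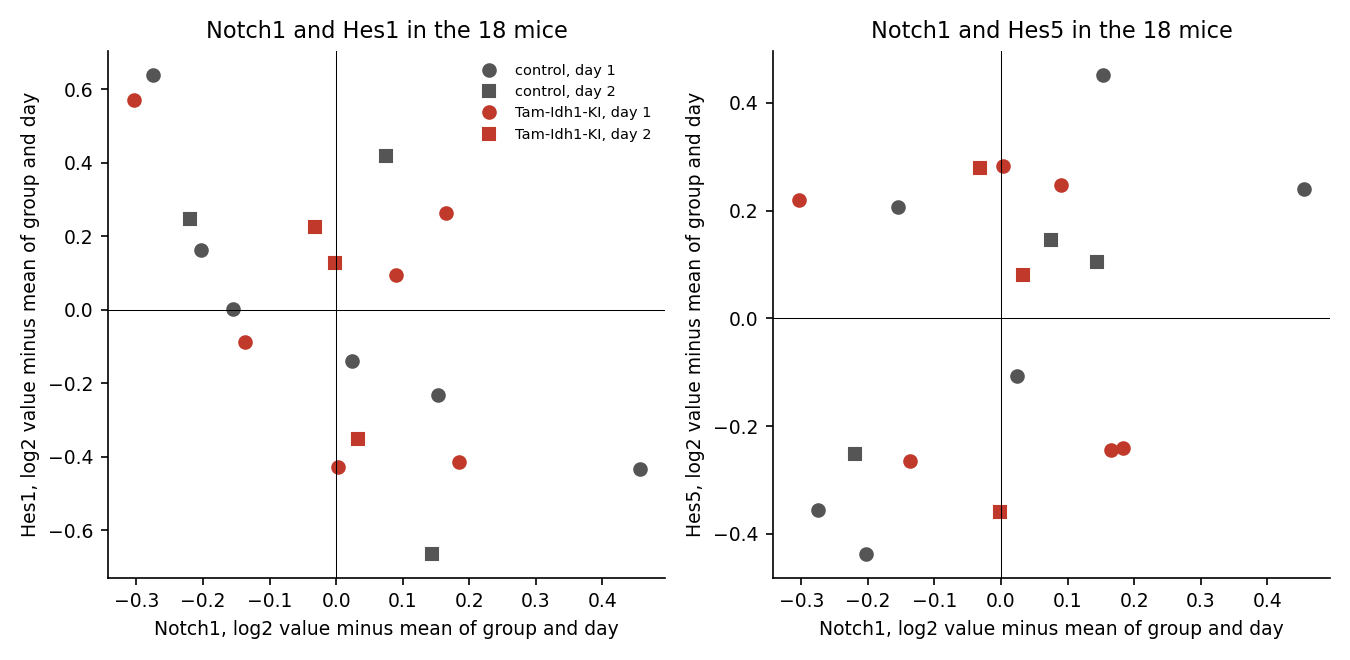
Hes1 (left) and Hes5 (right) against Notch1 in 18 mice, all as log2 values less the mean of the mouse's group and day, with grey for control, red for Tam-Idh1-KI, circles for day 1 and squares for day 2. Hes1 tends to be low where Notch1 is high (r = -0.635), and Hes5 shows a weaker slope the other way (r = 0.344). Neither relation passed after adjustment, and sex was not taken off.

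Other genes of the pathway were read from further lists. Of the proteins that cleave or mature the receptor 12 of 16 were measured and 9 had positive differences, with a median of 0.09. Mfng, or manic fringe, differed by 0.42 ± 0.17 (unadjusted p = 0.0258, adjusted p = 0.447 in limma), Aph1b, a subunit of gamma-secretase, by 0.18 ± 0.09, and Adam17, a protease that can shed receptors, by 0.18 ± 0.10. None of the 12 passed an adjusted p under 0.05 in limma, and 1, Mfng, passed unadjusted. Manic fringe thus had a positive fitted value and both other fringe genes negative ones, none past the threshold.

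Co-activators and co-repressors had 19 of 24 listed symbols measured, where Aes, not measured, is an older symbol of the measured Tle5. Their median was -0.02 and none had an unadjusted limma p under 0.05. Among proteins of receptor turnover 14 of 17 were measured, with a median of -0.06. Rab11a, a GTPase of recycling endosomes, differed by -0.27 ± 0.10 (unadjusted p = 0.0134, adjusted p = 0.37 in limma), and Dnm1, a dynamin of endocytosis, by -0.24 ± 0.12. For the other ligands reported for Notch 7 of 9 listed symbols were measured, where Nov, not measured, is an older symbol of the measured Ccn3. Their median was -0.03, and Ybx1 and Mfap2 led with 0.15 ± 0.07 and 0.25 ± 0.13. No gene of these 3 lists passed after adjustment in limma.

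Genes downstream of the pathway were counted in both directions. Of genes reported as induced by Notch 15 of 16 were measured and 9 had positive differences, with a median of 0.05. Id1 and Id3, inhibitors of proneural factors that BMP signals also induce, differed by 0.32 ± 0.11 and 0.29 ± 0.13 (adjusted p = 0.333 and 0.472 in limma). Genes of neuronal commitment that Hes factors repress had 7 of 14 measured. Of these 7 genes 6 were positive, where 54.5% of all genes were, with a median of 0.25 against 0.01 for all genes, and 4 had an unadjusted limma p under 0.05, where 9.57% of all genes did. The 1 negative gene, Neurod2, a factor of cortical neurons, had the largest fitted difference of the 7, -0.95 ± 0.60 (adjusted p = 0.686 in limma). Dcx, a microtubule protein of migrating neuroblasts, differed by 0.63 ± 0.17 (adjusted p = 0.17), Insm1, a factor of neurogenic progenitors, by 0.33 ± 0.09 (adjusted p = 0.19), Sox11 by 0.26 ± 0.10 and Dlx1 by 0.25 ± 0.11. No measured gene of either list passed after adjustment in limma.

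Markers of other cell types were read beside these values. Of the 22 measured ependymal markers 21 had positive differences, with a median of 0.31, 12 higher and 1, Mia, lower at an unadjusted limma p under 0.05, where 9.57% of all genes passed, and none passed after adjustment. The mean log2 level of these markers ran from 8.77 to 9.38 in controls and from 8.63 to 9.78 in Tam-Idh1-KI mice. Neuroblast markers had a median of 0.17, oligodendrocyte markers, all 13 positive, one of 0.22, microglial markers one of 0.11, stem cell and astrocyte markers one of 0.06, and endothelial markers one of 0.07. Other lists lay at or below 0, with medians of -0.09 for cortical neurons (4 of 13 positive), -0.12 for choroid plexus (3 of 10), -0.23 for erythroid cells (0 of 5), and 0.00 for both striatal neurons and pericytes. No marker of any list passed after adjustment in limma. With the ependymal mean as a further covariate no Notch pathway gene passed, and 6 of the 26 fitted values changed sign, those of Notch1, Notch3, Dner, Hey1, Hey2 and Numb. Numbl went from -0.43 to -0.24, Hes1 from 0.12 to 0.45, Jag1 from -0.11 to -0.28, Hes5 from 0.25 to 0.19 and Maml2 from 0.22 to 0.16. Notch1 stood at -0.13, Notch3 at 0.19 and Dner at 0.14. With the endothelial mean in its place 6 fitted values changed sign too, those of Dlk1, Hes1, Dtx1, Dtx2, Mib1 and Itch, and Notch4 stood at -0.19 and Hes1 at -0.02. The ependymal markers themselves leaned positive with genotype, and the endothelial ones less so. Such covariates can thus take off part of a genotype difference, and these values were not read as effects corrected for cell makeup.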

How the data were processed

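Total RNA of the SVZ of 18 mice was profiled on Illumina Mouse WG-6 v2 BeadArrays, 1 array per mouse. The authors deposited a bead signal intensity and a detection p-value for each of 45281 probes, exported with GenomeStudio per the submitters' processing notes (version not given in the sources used here), and a table of processed log2 values, whose medians per array and slopes against the signal show a log2 scale but whose centring is not stated. All sample columns were used.

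Signal intensities were corrected for background and quantile normalised with neqc in limma 3.58.1 (R 4.3.3), using the deposited detection p-values and an offset of 16. A probe was kept if 9 or more arrays gave it a detection p below 0.05, and was named through the platform's annotation, which gave 1 symbol for 34885 probes, several for 18 and none for 10378. The brightest of a gene's kept probes was used, and levels of different probes were not compared. Genotype, day and sex entered 1 fit (lmFit and eBayes), and p-values were adjusted by Benjamini-Hochberg over 11465 genes. The fit was tested on simulated data. Relations between mice used 100000 permutations within group and day. The precision is limited by the number of arrays.

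Values in both groups are given for genes with an unadjusted genotype p under 0.05 and for the gene of lowest p in each role group. Of each further list, up to 4 genes of lowest p are named, and Mia, Neurod2 and the genes named for day, sex or interaction effects were chosen after their values were seen. The Notch pathway genes, the further lists and the markers were chosen with earlier results of these data known. Alternatives covered the background correction, the scaling, the authors' processed values, the detection filter, the probe rule, array weights, the covariates, each day alone, a replicate block and each array left out.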

Additional observations from a re-analysis of the deposited data

Results flagged for a closer look

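Each of the 26 measured genes was screened in each group of 9 mice for a highest or lowest value that stood far from the others. Of these 52 sets 2 had one, no more than the share of about 1 in 20 that chance gives. Both belonged to replicate 6 of the Tam-Idh1-KI mice and to the Numb adaptors. Numb read 10.94 in that mouse, while the next highest of its group was 10.42 and the lowest 10.06. Numbl read 7.845, while the next was 7.271 and the lowest 6.684.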

How the results depend on the processing

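No Notch pathway gene passed an adjusted limma p under 0.05 for genotype in any of the alternatives with that threshold, and the smallest adjusted p among them was 0.113. At an unadjusted p under 0.05 the count was 1 of 26, Maml2, and by the methods' unpaired test it was 0 of 26, unadjusted or adjusted. The median difference of the 26 genes, -0.03, was 0.0856 with median scaling and ran from -0.0469 to -0.00328 with each array left out. Fitted genotype values kept their sign in every alternative for 7 genes, Dll1, Lfng, Rfng, Maml2, Maml3, Hes5 and Numbl, and Maml2 ran from 0.12 with the mean of its probes to 0.35 with median scaling. Same-numbered mice of both groups deviated together in 9 of 9 pairs, but in 4 of 9 once day was taken off, when 3 of 18 mice correlated best with their own number, so the numbers were not taken as a pairing. With the replicate number as a block in place of day, 0 of 26 pathway genes passed, their median was -0.00108, and 8 genes of the array passed in place of 20. For day, 13 to 20 pathway genes passed over the alternatives and no call changed direction. The number tested was 22 with detection on all 18 arrays and 32 without a detection filter, so these counts are not over one set. In the main fit 16 of 26 passed, beside 63.8% of all genes. Hey1 lost its day call in 4 of 8, Maml1 in 2, and Jag1 and Dtx2 in 1 each. Counts for sex and both interactions stayed at 0. SEs of the genotype difference ran from 0.07 for Mib2 to 0.24 for Rfng, which limits what these arrays could show, and the Lfng and Jag1 probes were detected on 10 and 13 arrays.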
